A study of Mus musculus with 5 samples.

Results

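The genes described here encode enzymes of mitochondrial fatty acid oxidation, the pathway that breaks fatty acids down to acetyl-CoA in the mitochondrial matrix. They were chosen by name, as the rows of the count tables whose mouse Ensembl gene ID has one of 10 listed symbols, and all 10 were found once among 55364 rows. The comparison was of invariant natural killer T (iNKT) cells, T cells with a conserved receptor for lipids held by the CD1d molecule, from tumour-bearing and from healthy livers. The HCC group has 3 libraries from wild-type male C57BL/6 mice injected into the peritoneum with 25 mg/kg diethylnitrosamine (DEN), a liver carcinogen, at 15 days of age, which then developed hepatocellular carcinoma. The healthy group has 2 libraries from wild-type mice given PBS, and mice were killed at 38 to 42 weeks of age. Cells had been sorted from whole-liver lymphocyte preparations by flow cytometry, as positive for PBS57-loaded CD1d tetramer and for Tcrb, so the libraries come from tumour-bearing livers and not from dissected tumours.

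The pathway runs in an order that is used below. Long-chain fatty acids, bound to coenzyme A, are passed to carnitine by Cpt1a at the outer mitochondrial membrane and back to coenzyme A by Cpt2 at the inner membrane. Acyl-CoA dehydrogenases (Acadvl, Acadl and Acadm, for very long, long and medium chains) make the first oxidation and give their electrons to the electron transfer flavoprotein, a dimer of Etfa and Etfb. The trifunctional protein, built of Hadha and Hadhb subunits, hydrates, oxidises and cleaves long chains, and Hadh oxidises shorter ones. Liver cells are rich in these enzymes, and in T cells the pathway is best known from memory and regulatory cells.

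Total counts were 1718452 to 2224356 per library, and levels are given as CPM, counts per 1000000 of each library's own total. With 3' sequencing a transcript gives about the same number of reads whatever its length. Levels and shares of counts are compared between libraries here, and a share of counts is a share of 3' reads. Counts of the 10 genes lay between 0 and 162 per library, so single values carry wide counting error. Healthy 1 had the largest total but counts in the fewest genes, 10861, against 11822 to 13229 in the other libraries. Healthy 1 stood apart: its Pearson r with the other libraries, across tested genes, was 0.736 to 0.796, against 0.825 to 0.890 among the other 4 libraries (genes are not independent replicates). Of the T and iNKT cell markers, the 13 genes summed to 5922, 5247 and 6004 CPM in HCC 1, 2 and 3 and to 4603 and 5691 CPM in healthy 1 and 2, while Zbtb16, the defining factor of the lineage, never exceeded 3 counts. The sum does not show how single markers varied within a group. Klrb1c, of the same list, was at 464.7, 20.95 and 333.3 CPM in HCC 1, 2 and 3. In healthy 1 and 2 Klrb1c was at 382.1 and 5.489 CPM. In RNA of a whole sorted population, fewer cells of a type and less RNA per cell cannot be told apart.

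Several of the 10 genes share sequence or position with other annotated genes, which limits what their counts stand for. Hadha and Hadhb lie head to head on chromosome 5, on opposite strands, with 85 bases between their gene starts in GENCODE. Their RefSeq promoter windows overlap. The RefSeq window of Hadhb (mm10, GRCm38.p6, chr5:30155003-30155302, plus strand) is shown because it overlaps that of Hadha, the other subunit of the trifunctional protein. Capitals mark the 228 bases that the Hadha window also covers.

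Hadhb: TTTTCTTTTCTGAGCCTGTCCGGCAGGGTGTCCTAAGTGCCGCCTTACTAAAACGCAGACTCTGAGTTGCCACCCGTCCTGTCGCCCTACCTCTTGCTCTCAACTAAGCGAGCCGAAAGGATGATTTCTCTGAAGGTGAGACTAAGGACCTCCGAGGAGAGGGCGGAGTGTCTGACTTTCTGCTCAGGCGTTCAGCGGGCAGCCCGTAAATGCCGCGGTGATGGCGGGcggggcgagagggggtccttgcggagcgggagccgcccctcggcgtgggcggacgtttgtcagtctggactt

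The windows of Etfa (chr9:55512194-55512493, minus strand) and Etfb (chr7:43443822-43444121, plus strand) are shown because these partners of 1 dimer had fitted fold changes of opposite sign, neither of which passed the test. Capitals mark CCAAT or its reverse complement, a motif picked after the sequences were seen.

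Etfa: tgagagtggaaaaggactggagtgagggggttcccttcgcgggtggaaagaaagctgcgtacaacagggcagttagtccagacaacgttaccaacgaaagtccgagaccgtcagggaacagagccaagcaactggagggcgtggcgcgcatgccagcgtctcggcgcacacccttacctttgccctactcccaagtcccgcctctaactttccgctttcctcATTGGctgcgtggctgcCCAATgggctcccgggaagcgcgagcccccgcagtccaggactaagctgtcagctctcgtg

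Etfb: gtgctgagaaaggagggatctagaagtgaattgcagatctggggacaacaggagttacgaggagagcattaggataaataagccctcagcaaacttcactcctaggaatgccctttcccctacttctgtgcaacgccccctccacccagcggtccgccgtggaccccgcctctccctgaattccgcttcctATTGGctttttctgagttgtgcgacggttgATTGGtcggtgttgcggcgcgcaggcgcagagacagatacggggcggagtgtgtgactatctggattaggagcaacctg

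Each of these windows held 2 CCAAT matches, and Cpt1a and Hadh held 1 each, so 4 of 10 windows had the motif, against 37.4% of all 32851 windows of 300 bases. The direct repeat bound by PPAR and RXR receptors (2 copies of AGGTCA with 1 base between them), the site of oestrogen-related receptors (TCAAGGTCA) and the NRF1 motif (GCGCA followed directly by its reverse complement TGCGC), searched as exact letters on both strands, were in 0 of the 10 windows and in 0.0396%, 0.423% and 0.971% of all windows. The absence of these exact letters from a window of 300 bases says nothing about binding of the factors. GC content of the 10 windows was 50.7% in Acadvl to 70.3% in Acadl, and the median of all windows was 52.7%.

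No gene of the pathway passed the test between HCC and healthy libraries. All 10 passed the filter on low counts, and 0 were called by the quasi-likelihood test of edgeR, each with adjusted p = 0.9998, as were 0% of the 8468 genes tested in either direction. Fitted levels were higher in HCC libraries for 8 genes and lower for Acadl and Etfb, whereas 50.3% of all tested genes were fitted higher. The median log2 fold change of the 10 genes was 0.46, against 0.00468 over all tested genes. This median was 0.12 without healthy 1, with 5 of 10 genes fitted higher, against 53.3% of all genes tested in that fit. It was 0.87 without healthy 2, where the median of all genes was 0.23. For Hadha and Etfa the lowest HCC library exceeded the highest healthy one, and for Acadl and Etfb the highest HCC library was under the lowest healthy one. Over all tested genes these shares were 12.8% higher and 5.46% lower. With TMM scaling Etfa alone was higher throughout, against 10.6% of all genes, and the same 2 genes were lower, against 8.43%.

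**Figure D1:**
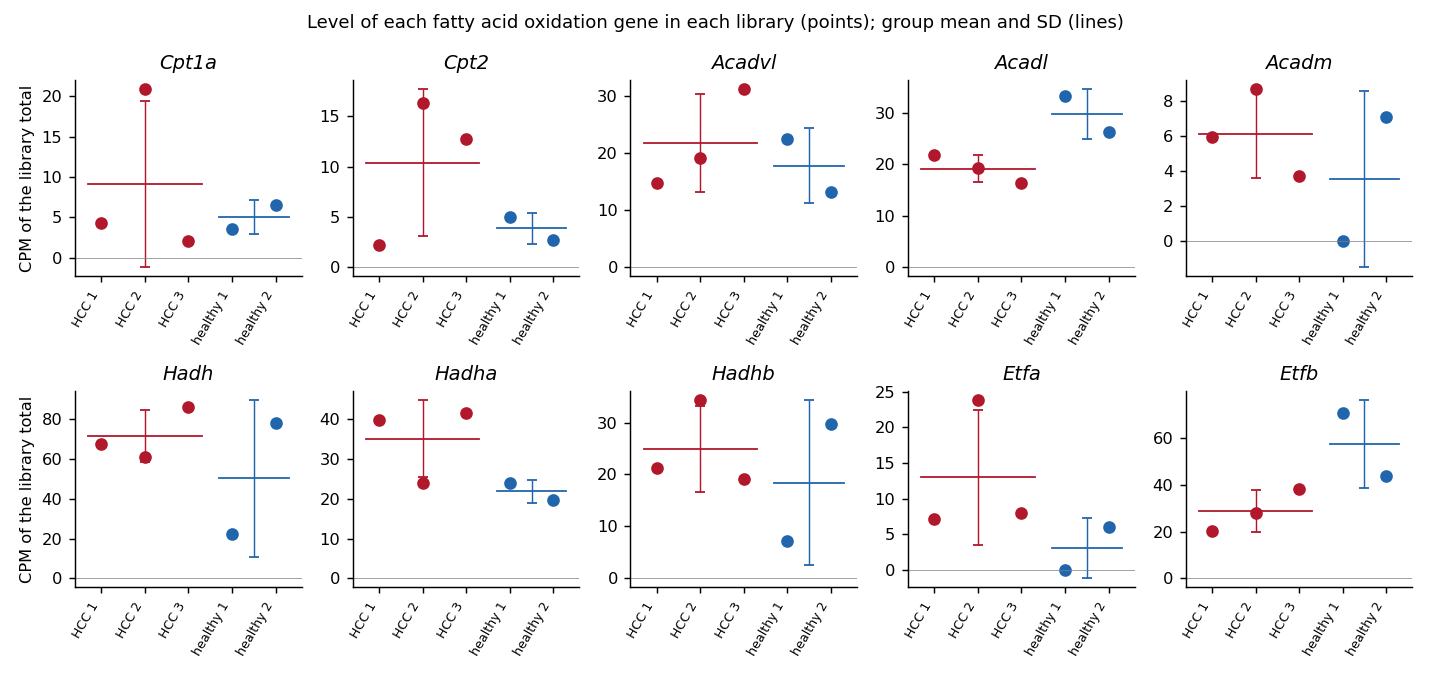
Level of each of the 10 genes in CPM of the library total (vertical axes, each with its own scale that includes 0) in HCC 1 to 3 and healthy 1 and 2, with the group mean (horizontal line) and SD (vertical line, n = 3 HCC and n = 2 healthy). The HCC points of Acadl and Etfb lie below both healthy points and those of Etfa and Hadha above both, for Hadha by 23.86 against 23.83 CPM.

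As a whole the 10 genes had summed levels that overlapped between the groups, and the difference was not tested. They summed to 204.6, 255.5 and 259.0 CPM in HCC 1, 2 and 3 and to 188.4 and 233.3 CPM in healthy 1 and 2. The groups overlapped, with means of 239.7 ± 30.4 CPM in HCC libraries (SD, n = 3) and 210.8 ± 31.8 CPM in healthy libraries (SD, n = 2). TMM scaling corrects totals for a few very abundant genes. With it the sums were 228 ± 31 CPM in HCC libraries (SD, n = 3) and 226 ± 1.28 CPM in healthy libraries (SD, n = 2). The small healthy SD is of 2 libraries whose make-up differed. The make-up of the sum was unlike the rest in healthy 1. There Hadh, Hadha and Hadhb held 28.4% of the pathway's counts (exact binomial 95% interval 24.1 to 33.0%), against 62.8%, 46.7% and 56.6% in HCC 1, 2 and 3 and 54.6% in healthy 2. Etfa and Etfb together held 37.5% in healthy 1 (32.8 to 42.3%), against 13.3%, 20.3% and 17.8% in HCC 1, 2 and 3 and 21.4% in healthy 2. Intervals cover counting error of reads only. Since reads and not distinct molecules were counted, they may be too narrow even for that.

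**Figure D2:**
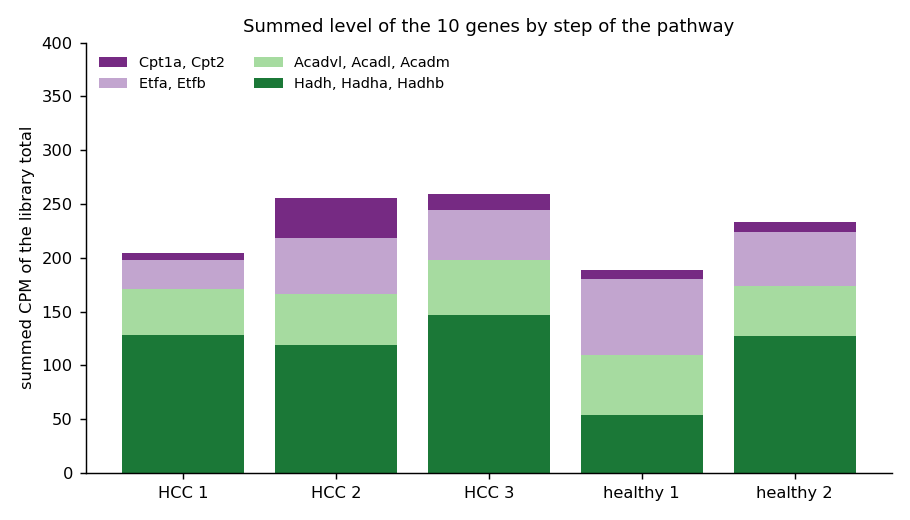
Summed CPM (vertical axis) of the genes of each step, stacked, in each library. The bars reach 204.6 to 259.0 CPM in HCC and 188.4 and 233.3 CPM in healthy libraries, and the segment of Hadh, Hadha and Hadhb is smallest in healthy 1.

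At the entry step, Cpt1a and Cpt2 had few counts and varied widely within the HCC group. Together they were at 6.53, 37.2 and 14.9 CPM in HCC 1, 2 and 3 and at 8.54 and 9.33 CPM in healthy 1 and 2, so HCC 1 lay below and HCC 2 and HCC 3 above both healthy libraries. Cpt1a (ENSMUSG00000024900, chromosome 19, 3322334 to 3385733, mm10), the rate-controlling transferase of the outer membrane, was at 4.35, 20.9 and 2.12 CPM in HCC 1, 2 and 3 and at 3.60 and 6.59 CPM in healthy 1 and 2. HCC 2 held 36 counts, and the other 4 libraries 4 to 12. Without HCC 2 the gene no longer passed the filter on low counts. Its log2 fold change was 0.64 (SE 1.10).

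Cpt2 (ENSMUSG00000028607, chromosome 4, 107903981 to 107923610) was at 2.18, 16.3 and 12.7 CPM in HCC 1, 2 and 3 and at 4.95 and 2.74 CPM in healthy 1 and 2. HCC 2 and HCC 3 lay above both healthy libraries and HCC 1 below both, and the log2 fold change was 1.18 (SE 1.06). Without HCC 2 or without HCC 3 it did not pass the filter, and without healthy 1 the log2 fold change was 1.85. No 31-base word at the 3' end of Cpt2 occurs in another gene.

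The acyl-CoA dehydrogenases did not differ in 1 direction. Their sum was 42.5, 47.1 and 51.5 CPM in HCC 1, 2 and 3 and 55.7 and 46.7 CPM in healthy 1 and 2, with overlapping groups. Acadl (ENSMUSG00000026003, chromosome 1, 66830839 to 66863277), the long-chain enzyme, was at 21.8, 19.2 and 16.5 CPM in HCC 1, 2 and 3 and at 33.3 and 26.3 CPM in healthy 1 and 2. Every HCC library was lower than both healthy libraries, with the highest value in healthy 1. The log2 fold change was -0.85 (SE 0.49, unadjusted p = 0.117 and adjusted p = 0.9998 in edgeR), and -0.49 without healthy 1. No word at its 3' end is shared with another gene. The processed pseudogene Gm15793, which lies within Acadl on the same strand, had 21, 22 and 20 counts in HCC 1, 2 and 3 and 21 and 24 in healthy 1 and 2.

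Acadvl (ENSMUSG00000018574, chromosome 11, 70010183 to 70015411), the very-long-chain enzyme, was at 14.7, 19.2 and 31.3 CPM in HCC 1, 2 and 3 and at 22.5 and 13.2 CPM in healthy 1 and 2. The groups overlapped, with healthy 1 between HCC 2 and HCC 3 and healthy 2 below the HCC libraries. The log2 fold change, 0.07 (SE 0.61), changed sign between settings, from -0.33 without HCC 3 to 0.70 without healthy 1. Its 3' end lies inside Dvl2 on the other strand, and 45.4% of its 3' words also occur there. Dvl2 had 45, 90 and 39 counts in HCC 1, 2 and 3 and 69 and 49 in healthy 1 and 2. Without the strand setting of the counting, reads of these genes cannot be told apart.

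Acadm (ENSMUSG00000062908, chromosome 3, 153922357 to 153944632), the medium-chain enzyme, was at 5.99, 8.73 and 3.72 CPM in HCC 1, 2 and 3, at 0 in healthy 1 and at 7.14 CPM in healthy 2. A count of 0 in healthy 1 allows up to 1.35 CPM (3 counts). Healthy 2 lay within the HCC range, so the log2 fold change of 0.73 (SE 1.44) came with a value of -0.26 without healthy 1. Against healthy 1 taken alone at its limit of 3 counts, the lower bound of the fold was 4.55 for the HCC mean. This bound rests on that limit and on 1 library. A count of 0 in healthy 1 was found in 7.3% of tested genes, and 6.06% had it with counts above 0 in the other 4 libraries, as Acadm and Etfa did.

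Of the enzymes of hydration, the second oxidation and cleavage, Hadh and Hadhb were within the HCC range in healthy 2 and below it in healthy 1. Hadh (ENSMUSG00000027984, chromosome 3, 131233419 to 131272101) was at 67.5, 61.1 and 86.0 CPM in HCC 1, 2 and 3 and at 22.5 and 77.9 CPM in healthy 1 and 2. The healthy libraries thus differed from each other by more than the range of the HCC group. The log2 fold change was 0.42 (SE 0.50), -0.14 without healthy 1 and 1.39 without healthy 2.

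Hadhb (ENSMUSG00000059447, chromosome 5, 30155248 to 30184593), the thiolase subunit of the trifunctional protein, was at 21.2, 34.3 and 19.1 CPM in HCC 1, 2 and 3 and at 7.19 and 29.6 CPM in healthy 1 and 2. Healthy 1 was again the lowest library and healthy 2 lay inside the HCC range. The log2 fold change was 0.33 (SE 0.63), -0.30 without healthy 1 and 1.48 without healthy 2. Of its 3' words 43.3% also occur in other genes, mainly the processed pseudogene Gm13910 on chromosome 2. That row had 12, 27 and 3 counts in HCC 1, 2 and 3 and 3 and 15 in healthy 1 and 2, so its counts were low in the same healthy library. Adding the rows gave 27.8, 50.05 and 20.7 CPM in HCC 1, 2 and 3 and 8.54 and 37.9 CPM in healthy 1 and 2.

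Hadha (ENSMUSG00000025745, chromosome 5, 30118304 to 30155162), which carries the hydratase and dehydrogenase activities of the trifunctional protein, was at 39.7, 23.9 and 41.4 CPM in HCC 1, 2 and 3 and at 23.8 and 19.8 CPM in healthy 1 and 2. HCC 2 was level with healthy 1, and with TMM scaling the groups overlapped. The log2 fold change was 0.49 (SE 0.51) and, unlike that of Hadhb, was higher without healthy 1 (0.81) than without healthy 2 (0.28).

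The share of Hadha in the counts of the trifunctional protein's partners varied between libraries. Hadha held 65.2%, 41.0% and 68.4% of the counts of the pair in HCC 1, 2 and 3 and 76.8% and 40% in healthy 1 and 2. The exact 95% intervals of HCC 2 (31.3 to 51.3%) and healthy 2 (29.8 to 50.9%) lay wholly below those of HCC 1 (55.6 to 73.9%), HCC 3 (59.1 to 76.8%) and healthy 1 (65.1 to 86.1%). These intervals cover counting error of reads alone and not the variation between libraries. Gm13910, which shares words with Hadhb, also had its highest counts in HCC 2 and healthy 2 (27 and 15). The lower shares were thus in 1 library of each group, and the group means were 58.2% in HCC and 58.4% in healthy libraries.

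**Figure D3:**
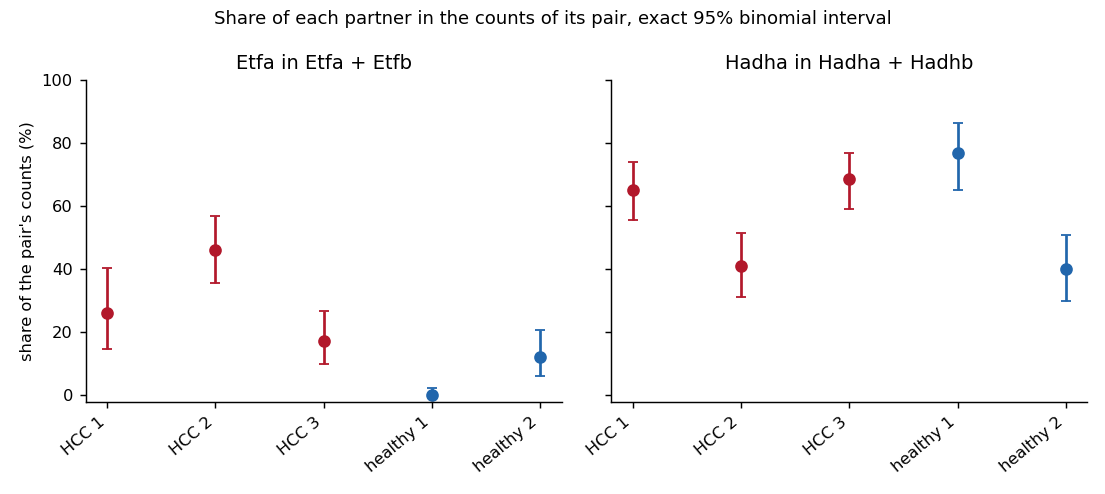
Share of Etfa in the counts of Etfa and Etfb (left) and of Hadha in those of Hadha and Hadhb (right), in percent, in each library, with exact 95% binomial intervals. Etfa ranges from 17.2 to 46.1% in HCC and is at 0 and 12.1% in healthy libraries, and Hadha is near 40% in HCC 2 and healthy 2.

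The subunits of the electron transfer flavoprotein, which collects electrons from the dehydrogenases, had fitted fold changes of opposite sign, and neither passed the test. Etfb (ENSMUSG00000004610, chromosome 7, 43444083 to 43457800) was at 20.1, 27.9 and 38.2 CPM in HCC 1, 2 and 3 and at 70.6 and 43.9 CPM in healthy 1 and 2. Every HCC library was below both healthy libraries, with means of 28.8 ± 9.07 CPM in HCC (SD, n = 3) and 57.3 ± 18.9 CPM in healthy libraries (SD, n = 2). Its log2 fold change was -1.21 (SE 0.49), with an unadjusted p of 0.0343 and an adjusted p of 0.9998 in edgeR. Of the 10 genes it alone had an unadjusted p under 0.05, as did 3.63% of all tested genes, 1.48% lower and 2.15% higher in HCC libraries. Without healthy 1 its log2 fold change was -0.63 and without healthy 2 it was -1.58.

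The row of Etfb had a near double. Mir7051 (chr7:43457497-43457569) is annotated on the same strand and overlaps an annotated exon of Etfb near the 3' end of the gene. Its row had 37, 48 and 70 counts in HCC 1, 2 and 3 and 149 and 83 in healthy 1 and 2. Etfb had 37, 48 and 72 in HCC 1, 2 and 3 and 157 and 80 in healthy 1 and 2. Reads of a 3' library made from Etfb may thus stand in both rows, and the Mir7051 row is not a measurement of the miRNA that can be told apart from Etfb. Its RefSeq hairpin is shown to give the stretch in question.

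Mir7051: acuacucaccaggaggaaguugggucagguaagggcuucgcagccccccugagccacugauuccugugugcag

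Of the 3' words of Etfb, 45.6% occur in other annotated genes, mainly Gm45233, which spans Etfb and had 0 counts in each of the 5 libraries.

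Etfa (ENSMUSG00000032314, chromosome 9, 55454508 to 55512243) was at 7.07, 23.9 and 7.96 CPM in HCC 1, 2 and 3, at 0 in healthy 1 and at 6.04 CPM in healthy 2. HCC libraries held 13, 41 and 15 counts, against 0 and 11 in healthy 1 and 2, so HCC 1 and HCC 3 were barely above healthy 2. The log2 fold change was 2.02 (SE 1.28, unadjusted p = 0.147 in edgeR), 1.03 without healthy 1 and 1.32 without HCC 2. Against healthy 1 taken alone at its limit of 1.35 CPM (3 counts), the lower bound of the fold was 9.61 for the HCC mean of 13.0 CPM. This bound rests on that limit and on 1 library. Of its 3' words 11.9% occur in Gm15285, Gm15289 or Gm6270, all with 0 counts in the 5 libraries.

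Etfa made up 26.0%, 46.1% and 17.2% of the counts of the pair in HCC 1, 2 and 3 and 0% and 12.1% in healthy 1 and 2. For healthy 1 this was 0 of 157 counts, which allows a share of up to 1.91%. The groups did not overlap, but the exact interval of HCC 3 (9.98 to 26.8%) overlapped that of healthy 2 (6.19 to 20.6%). The difference between group means, 29.8% in HCC and 6.04% in healthy libraries, was not tested.

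**Figure D4:**
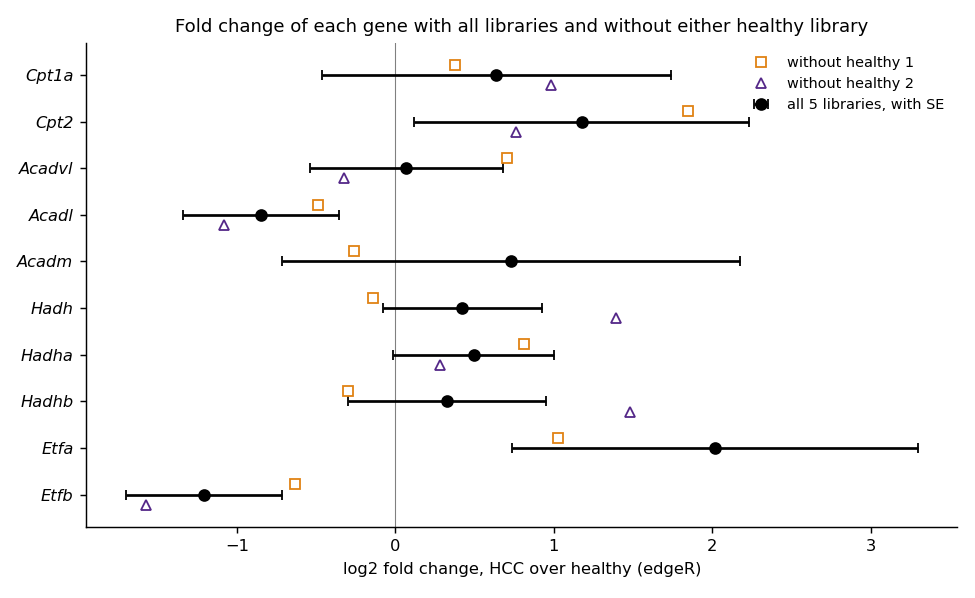
Log2 fold change of HCC over healthy (horizontal axis) for each gene, fitted with all 5 libraries (black points, bars are SE) and without healthy 1 (squares) or healthy 2 (triangles). Acadm, Hadh and Hadhb lie above 0 with all libraries and below 0 without healthy 1, while Acadl and Etfb lie below 0 in all 3 fits. No triangle is drawn for Acadm and Etfa, which had 0 counts in healthy 1.

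Healthy 1 was the highest or the lowest of the 5 libraries for 6 of the 10 genes, highest for Acadl and Etfb and lowest for Acadm, Hadh, Hadhb and Etfa. Over all tested genes this held for 60.6%. The direction of Acadm, Hadh and Hadhb between the groups thus rested on this library.

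Markers of hepatocytes, which are rich in these enzymes, had higher sums in HCC libraries, but edgeR called none of them. The 24 hepatocyte markers summed to 109.9, 378 and 879 CPM in HCC 1, 2 and 3. In healthy 1 and 2 they summed to 72.8 and 74.7 CPM. All 13 tested ones were fitted higher, where 50.3% of all tested genes were fitted higher. The groups did not overlap for 6 of the 13 and overlapped for the rest. Single markers, picked with their values known, varied. Ttr was at 5.44, 36.1 and 41.9 CPM in HCC 1, 2 and 3. In healthy 1 and 2 Ttr was at 1.35 and 1.65 CPM. Alb was at 7.07, 58.8 and 199 CPM in HCC 1, 2 and 3. In healthy 1 and 2 Alb was at 3.60 and 18.1 CPM, so its groups overlapped. Apob, the defining protein of the lipoproteins that hepatocytes secrete, was at 0 in every library. The hepatocyte sum was highest in HCC 3, as were Acadvl, Hadh and Hadha, and Etfb was highest there among HCC libraries. Cpt1a, Cpt2, Acadm, Hadhb and Etfa were highest in HCC 2, and Acadl was lowest in HCC 3. Erythroid markers summed to 7391, 17080 and 15380 CPM in HCC 1, 2 and 3 and to 2975 and 2787 CPM in healthy 1 and 2. The part of these cells in the values of the 10 genes was not tested.

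Macrophage and Kupffer cell markers summed to 28.3, 33.7 and 11.2 CPM in HCC 1, 2 and 3 and to 21.6 and 7.68 CPM in healthy 1 and 2. B cell markers summed to 102, 124 and 84.9 CPM in HCC 1, 2 and 3 and to 36.0 and 80.1 CPM in healthy 1 and 2. Neutrophil, endothelial and stellate cell lists stayed at 17.5 CPM or less in each library.

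Genes around the pathway were counted in 7 further lists of 103 genes, of which 62 were tested. None was called in either direction by edgeR, and their median log2 fold change was -0.01. Of the 62, 31 were fitted higher and 31 lower, where 50.3% of all tested genes were fitted higher. At an unadjusted p under 0.05 there were 3 of the 62 genes, against 3.63% of all tested genes.

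Among 10 genes of carnitine handling and fatty acid activation, 4 were tested and 1 was fitted higher. Acsl5, a ligase that joins fatty acids to coenzyme A, was at 88.9 ± 7.81 CPM in HCC (SD, n = 3) and 83.6 ± 35.5 CPM in healthy libraries (SD, n = 2). Acsl4, a ligase that prefers arachidonic acid, was at 28.9 ± 2.73 CPM in HCC and 24.7 ± 7.01 CPM in healthy libraries. Crat, Slc22a5, Cpt1b and Acsl6 never exceeded 3 counts, so of the Cpt1 genes Cpt1b, the muscle form, was at or near 0.

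Of the other enzymes of mitochondrial beta-oxidation 14 were tested, and edgeR called 0. In HCC libraries 9 were fitted lower and 5 higher, where 50.3% of all tested genes were fitted higher. The median log2 fold change of the 14 was -0.27. Acads, the short-chain acyl-CoA dehydrogenase, was at 66.4, 86.1 and 75.4 CPM in HCC 1, 2 and 3 and at 95.3 and 122 CPM in healthy 1 and 2. As for Acadl, every HCC library was below both healthy libraries, with a log2 fold change of -0.69 (SE 0.35, unadjusted p = 0.0789 in edgeR). Acaa2, the thiolase of shorter chains, was at 32.1 ± 12.3 CPM in HCC and 36.5 ± 15.8 CPM in healthy libraries.

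Uptake and release of fatty acids was covered by 5 tested genes, 3 of them fitted higher. Slc27a4, a transporter and ligase of long-chain fatty acids, was at 19.5 ± 18.5 CPM in HCC and 15.9 ± 13.1 CPM in healthy libraries, and Lipa, the acid lipase of lysosomes, at 16.2 ± 3.20 and 17.9 ± 4.96 CPM in HCC and healthy libraries. Cd36, Fabp4, Lpl and 3 Slc27a genes never exceeded 3 counts.

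Of the regulators 14 were tested, with a median of 0.15, and 9 were fitted higher, against 50.3% of all tested genes. Prkag1, a subunit of the energy sensor AMPK, was at 81.2 ± 9.98 CPM in HCC and 74.4 ± 18.2 CPM in healthy libraries, and 35.5% of its 3' words occur in the antisense gene B130046B21Rik, which had 0 counts. Rxrb, a retinoid X receptor, was at 32.5 ± 14.0 CPM in HCC and 35.7 ± 5.46 CPM in healthy libraries. Ppara, Pparg and Ppargc1a, known inducers of fatty acid oxidation, never exceeded 3 counts in any library.

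**Figure D5:**
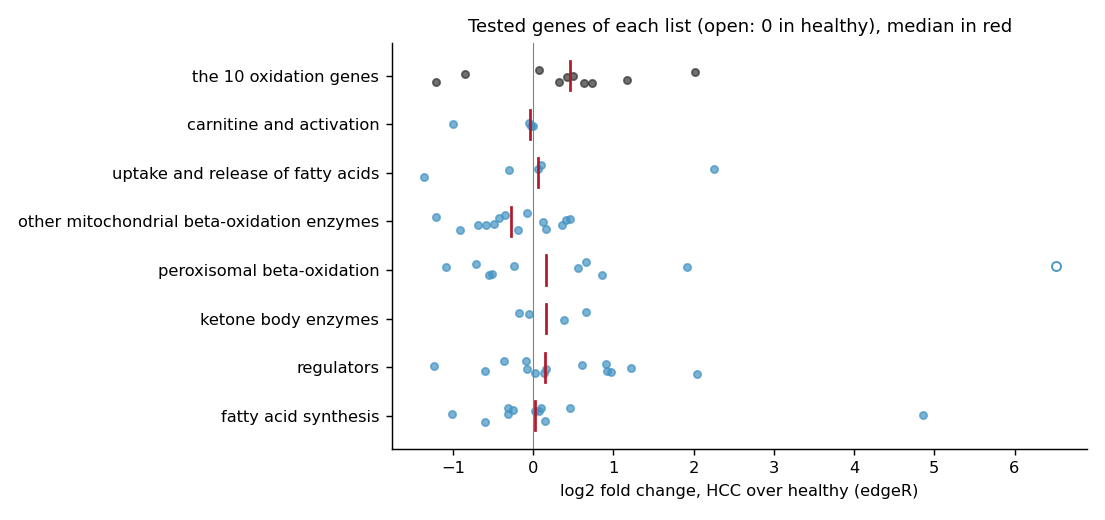
Log2 fold change of HCC over healthy (horizontal axis) of every tested gene of the pathway and of the 7 further lists (rows), with the median of each list as a red line. Medians run from -0.27 to 0.46, and the point farthest right is Acaa1b, an open circle because both healthy libraries had 0 counts, which makes its fitted value depend on the prior count of the fit.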

How the data were processed

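RNA of sorted iNKT cells had been made into 3' mRNA libraries (QuantSeq, for Ion Torrent), per the labels' protocols. The authors deposited raw counts per Ensembl gene ID, 1 table per library and not normalized. Per the submitters' processing notes the build was mm10 and the tools were HISAT2, Bowtie2 and bcl2fastq, with limma, edgeR, DESeq and DESeq2. Their roles, the counting program, the annotation and the strand setting are not given in the sources used here. Symbols and positions came from GENCODE M21, promoter windows and the hairpin from RefSeq (GRCm38.p6). All 10 symbols matched 1 gene ID and 1 promoter window.

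The design text counts 3 HCC and 2 healthy mice. As deposited, the tables named for HCC 2 and for HCC 3 carry 1 common number, so a fit with both summed was also made. Counts were filtered with filterByExpr by group (8468 of 55364 genes kept), scaled with TMM and tested over all kept genes with the quasi-likelihood test of edgeR 4.0.16 in R 4.3.3, HCC against healthy, with Benjamini-Hochberg adjustment and a threshold of 0.05. SE is the log2 fold change over the root of the F statistic. The code was tested on simulated counts. Sequence sharing was measured on 31-base words from the final 300 bases of each transcript, as the percentage also present in transcripts of other genes. Alternatives were DESeq2 size factors, library totals only, no filter, at least 10 CPM in 2 libraries, DESeq2 1.42.0, limma-voom (limma 3.58.1), the replicate number as a block, and leaving out each library.

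The members and lists were chosen with earlier results of these data known. Named genes are all 10 members, the 2 of each further list with the highest mean CPM, and any called gene.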

Additional observations from a re-analysis of the deposited data

How the results depend on the processing

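Of 122 fold changes of the 10 genes under other settings, 115 kept their direction and 7 changed sign, and none was called. Cpt1a, Cpt2 and Acadm got no adjusted p in DESeq2, so there only their direction was compared. Acadvl changed sign with the replicate number as a block (-0.26), with HCC 2 and HCC 3 summed (-0.041), and without HCC 3 or healthy 2 (-0.33 and -0.32). Acadm, Hadh and Hadhb did so without healthy 1 (-0.26, -0.14 and -0.30). Leaving out 1 library gave -0.33 to 0.70 for Acadvl, -0.26 to 0.97 for Acadm, -0.14 to 1.39 for Hadh and -0.30 to 1.48 for Hadhb. Genes called were 0 with all libraries, 53 with no filter on low counts, 8 in DESeq2, 3 with the replicate block, and 0 to 196 when 1 library was left out, the 196 without healthy 2, a fit in which lone healthy 1 is assumed to vary like the HCC libraries. With 0 called, edgeR had 307 genes at an unadjusted p under 0.05. Of the genes in the further lists 1 was called with no filter (Scd1). Genes of the pathway fitted higher were 8, or 5 with at least 10 CPM in 2 libraries (7 tested, against 49.5% of all genes), and 5 to 8 leaving out 1 library. Their median log2 fold change of 0.46 was 0.60 with library totals only, where the median of all genes was 0.16, leaving 0.43 between them. It was 0.33 with at least 10 CPM in 2 libraries and 0.12 to 0.87 leaving out 1 library. The 0.87 was without healthy 2, with Acadm and Etfa, which then have no healthy count, entered at their lower bounds, and there the median of all genes was 0.23. Causes were not tested. Over tested genes, deviations from the group mean had r of -0.00026 between HCC 1 and healthy 1 and 0.116 between HCC 2 and healthy 2. With 2 healthy libraries these deviations mirror each other, so the values cannot settle whether the number marks a pair. The block changed no call of the 10 genes. With counts of 0 to 162 per library and a between-library coefficient of variation of 53.8%, these genes were measured with wide error. The size of difference that could have been detected for these 10 genes in particular was not measured.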

Other observations

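Peroxisomes hold a second pathway of beta-oxidation. Of its 16 listed genes 10 were tested, 5 fitted higher and 5 lower in HCC libraries, with 0 called by edgeR. Scp2, which carries sterols and a thiolase, was at 55.1 ± 2.81 CPM in HCC (SD, n = 3) and 59.1 ± 24.4 CPM in healthy libraries (SD, n = 2), and 47.3% of its 3' words occur in other genes, mainly Scp2-ps2. Crot, the carnitine transferase of peroxisomes, was at 38.1, 22.1 and 61.6 CPM in HCC 1, 2 and 3 and at 90.8 and 59.8 CPM in healthy 1 and 2, a log2 fold change of -1.09 (SE 0.53, unadjusted p = 0.0679). Of the ketone body enzymes, Acat1 was at 63.3 ± 24.5 CPM in HCC and 37.0 ± 26.9 CPM in healthy libraries, and Oxct1, which lets cells use ketone bodies, at 49.0 ± 22.4 CPM in HCC and 45.4 ± 20.4 CPM in healthy libraries. In fatty acid synthesis 11 genes were tested and 6 fitted higher. Elovl5, an elongase, was at 168 ± 69.1 CPM in HCC and 113 ± 93.1 CPM in healthy libraries, and Tecr, a reductase of elongation, at 89.9 ± 21.8 and 93.7 ± 48.0 CPM in HCC and healthy libraries.

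The 3 list genes at an unadjusted p under 0.05 in edgeR were chosen for naming after their values were seen. Scd1, a desaturase abundant in liver, had 3, 29 and 67 counts in HCC 1, 2 and 3 and 0 and 2 in healthy 1 and 2. Rxra, a retinoid X receptor, had 16, 17 and 56 counts in HCC 1, 2 and 3 and 8 and 6 in healthy 1 and 2. Acaa1b, a peroxisomal thiolase, had 12, 1 and 21 counts in HCC 1, 2 and 3 and 0 in both healthy libraries. For all 3 genes HCC 3 was highest, as it was for the summed hepatocyte markers (109.9, 378 and 879 CPM in HCC 1, 2 and 3), and the part of hepatocyte RNA in these values was not tested.

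Other genes of the further lists whose groups did not overlap, also picked after their values were seen, had an unadjusted p above 0.05. Mgll, which releases fatty acids from monoglycerides, was at 7.07, 9.89 and 4.25 CPM in HCC 1, 2 and 3 and at 1.35 and 1.10 CPM in healthy 1 and 2. Pecr, a reductase of peroxisomes, was at 5.99, 11.1 and 3.18 CPM in HCC 1, 2 and 3 and at 1.35 and 1.65 CPM in healthy 1 and 2. Decr1, the mitochondrial reductase needed for unsaturated chains, was at 5.99, 7.57 and 1.59 CPM in HCC 1, 2 and 3 and at 10.8 and 9.33 CPM in healthy 1 and 2. Fads1, a desaturase of polyunsaturated chains, was at 10.3, 8.15 and 6.90 CPM in HCC 1, 2 and 3 and at 12.1 and 18.7 CPM in healthy 1 and 2. With Acads, Scd1, Rxra and Acaa1b these were 8 of 62 tested genes, 5 higher and 3 lower in HCC libraries, where 12.8% and 5.46% of all tested genes were higher and lower in this way.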
